A study of Drosophila melanogaster with 12 samples.

Results

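The 10 genes described here, kkv, knk, serp, verm, Cht2, Cht5, Cht6, Cht7, Cht9 and Cht10, build, modify or break down chitin in Drosophila melanogaster. They were chosen by name, for their function and with earlier results of these data known, out of 13771 genes with transcripts in the data. The level of a gene is the sum over its transcripts of TPM, a measure of transcript abundance that is scaled by transcript length and adds up to 1000000 in each library. The share of an isoform is its TPM as a percentage of the TPM of its gene. All 10 genes passed the filter of a mean of at least 1 TPM over the 12 libraries, and none was at 0 in any library.

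The libraries came from poly-A RNA of whole larvae at L3, the last larval stage, of 2 genotypes. Control larvae were yw, and clamp null larvae carried the recessive clamp2 allele in the yw background. CLAMP is a zinc finger protein that binds GA repeats on chromatin. There were 4 groups, control females, clamp null females, control males and clamp null males, with 3 libraries each, where the controls carry the numbers 1 to 3 and the nulls 4 to 6, and the labels give 3 larvae for the extraction without saying whether each library is a pool. The age of the larvae within L3 was not given in the sources used here, and the clamp null larvae are described as not pupating. The study also states that males homozygous for clamp2 die before late L3, so that splicing could not be measured in them. It nevertheless lists clamp mutant males among its L3 RNA libraries. The yw marker was shared by all groups. The study's checklist describes its data as biological replicates, while the labels do not say how the libraries of a group were separated, so the p-values measure the spread between these libraries. In whole larvae, fewer cells of a type and less RNA per cell cannot be told apart.

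Chitin, a polymer of N-acetylglucosamine, stiffens the cuticle, lines the tracheal tubes and is part of the matrix that protects the midgut epithelium. It is polymerised at the apical membrane from UDP-N-acetylglucosamine by chitin synthases, and secreted proteins then order, protect and deacetylate the fibres. At each moult the old cuticle is digested by chitinases of the moulting fluid and the sugar is partly reused, so the genes of synthesis and of breakdown are used at different times of a larval stage. Steroid hormone pulses set these times.

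Clamp itself was lower in the clamp null libraries of both sexes. It stood at 39.4, 45.1 and 36.3 TPM in the control females against 19.4, 16.2 and 20.04 TPM in the clamp null females, and at 59.2, 58.5 and 43.4 TPM in the control males and 22.8, 21.4 and 21.9 TPM in the clamp null males. The log2 fold change was -1.08 in females and -1.24 in males (adjusted p = 0.00276 and 0.000332, limma). Between 8665 and 11321 genes reached 1 TPM in a library. Markers of other tissues and of larval age moved with genotype. All 6 salivary glue genes of late L3 were lower in the nulls of both sexes, with a summed level of 80113 to 152744 TPM in control females against 10.3 to 3544 TPM in null females, and 115745 to 148188 TPM in control males against 20.9 to 285 TPM in null males. The late L3 fat body genes Fbp1 and Fbp2 had a lower sum in every null library, from 9217 to 14055 TPM in control females to 334 to 1401 TPM in null females and from 3337 to 6254 TPM in control males to 13.0 to 1438 TPM in null males. All 3 muscle genes were higher in both sexes, from 2766 to 5798 TPM in control females to 11856 to 14470 TPM in null females, and from 2152 to 2943 TPM in control males to 11213 to 14308 TPM in null males. Of the 4 larval cuticle genes, Lcp1 and Lcp2 were lower and Lcp3 higher in the nulls of both sexes, and Lcp4 was higher in the null males (log2 fold change 0.68, adjusted p = 0.0208). Of the 4 larval serum protein genes of the fat body, Lsp1beta was higher in the nulls of both sexes, Lsp1gamma was higher in the null males, and Lsp2 was lower in the null males (-4.70, adjusted p = 0.0131). Of the 3 neuronal genes, brp was lower in the null males (-1.91, adjusted p = 0.00138). The summed level of the 2 tracheal genes btl and trh lay between 2.40 and 7.15 TPM in all libraries. Of these trh was lower in the null males, at 5.73, 4.95 and 5.19 TPM in the controls and 1.76, 2.23 and 1.55 TPM in the nulls (-1.15, adjusted p = 0.00670), and it was not called in females, while btl was called in neither sex. The 4 midgut protease genes summed to 1619 to 5868 TPM in control females, 3136 to 14639 TPM in null females, 1621 to 1769 TPM in control males and 5576 to 14439 TPM in null males, and of these 1 was called higher in males and none in females. The part of these differences in the results for the chitin genes was not tested.

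Libraries 4 and 5 labelled clamp null male stood apart from the other males. The 10 testis genes summed to 638 to 1048 TPM in the control males, to 1.43 and 7.34 TPM in these 2 libraries and to 137 TPM in clamp null male 6, against 0.274 to 18.8 TPM in the females. Because they go against their label in this respect, the tests that use null males were also computed with both left out, an alternative chosen after the data were examined, which leaves 1 clamp null male library that is assumed to vary like the other groups. The share of TPM taken by the glue genes also differed between the genotypes. Over the 11145 genes tested the median log2 fold change stood at -0.20 for females and -0.75 for males, and rescaling the libraries by the median of ratios moved it to -0.023 and -0.22. Values below are on the deposited TPM scale, and a fold change is a difference of log2(TPM + 1), which understates the change of low genes.

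**Figure D1:**
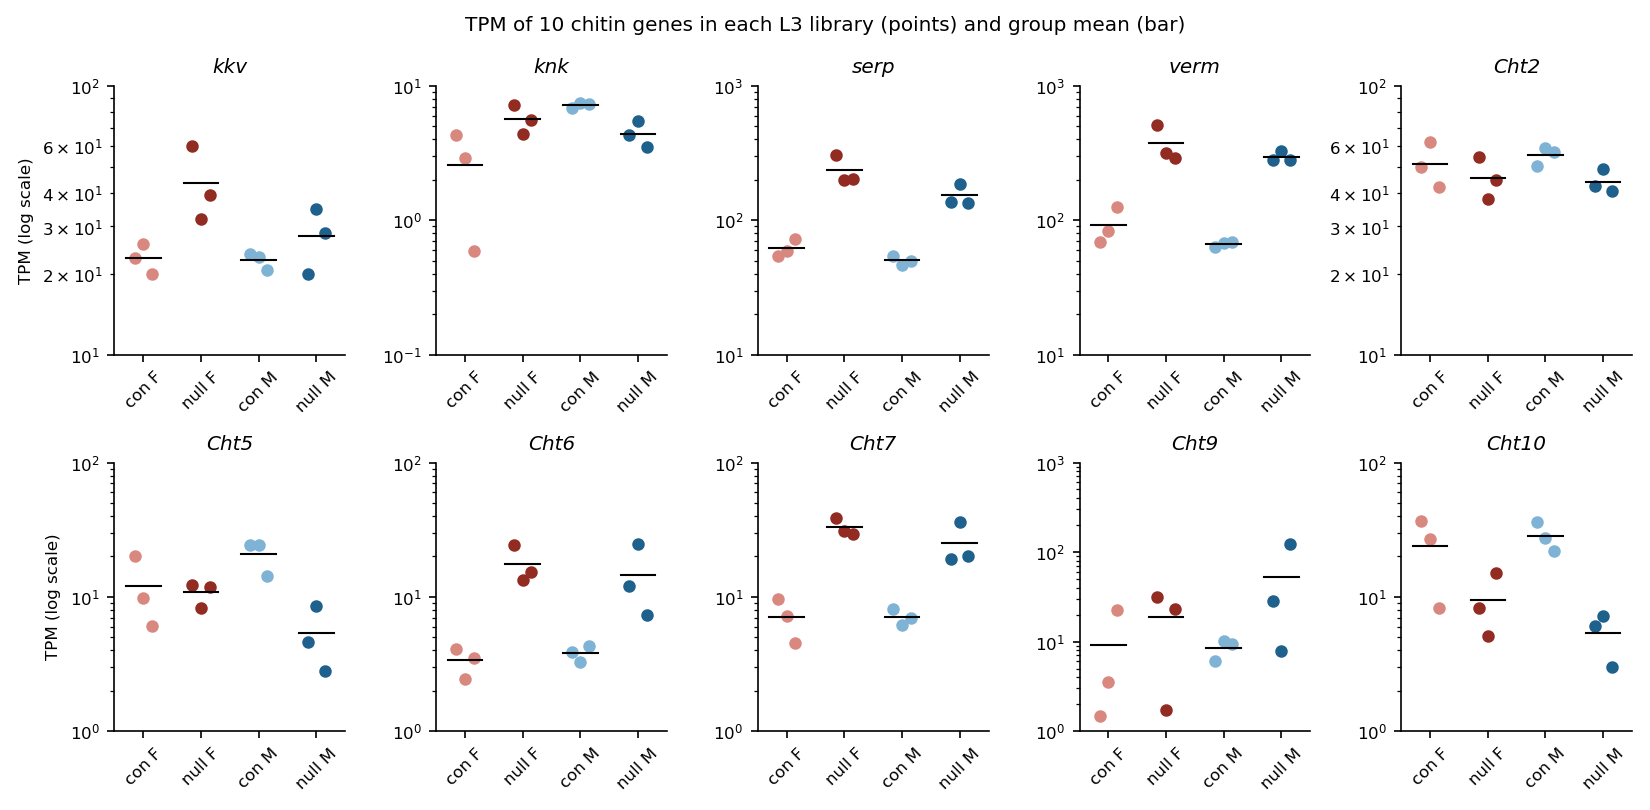
TPM on a log axis of the 10 chitin genes in the 12 L3 libraries; each panel is a gene, each point a library, each bar the mean of the 3 libraries of a group (con, control; null, clamp null; F, female; M, male). The points of serp, verm, Cht6 and Cht7 were all higher in the clamp nulls than in the controls of the same sex, while those of Cht10 and Cht5 were all lower in the clamp null males.

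Loss of CLAMP was accompanied by higher levels of both chitin deacetylases and of the chitinases Cht6 and Cht7 in both sexes, and by lower levels of the chitinases Cht5 and Cht10 in males. Of the 10 genes, 5 were called higher and 0 lower in the clamp null females (kkv, serp, verm, Cht6 and Cht7), where 9.8% of all genes tested were called higher and 15.6% lower. In males 4 were called higher (serp, verm, Cht6 and Cht7) and 2 lower (Cht5 and Cht10), where 11.3% of all genes were called higher and 45.8% lower. The median log2 fold change of the 10 genes was 1.02 in females and 0.90 in males. The 3 libraries of each genotype did not overlap for 6 of the genes in females, against 40.7% of all genes tested, and for 8 in males, against 63.6%. After the rescaling, the same calls stood and knk was added in females and kkv in males.

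serp (serpentine, FBgn0260653, chromosome 3L from 19700977 to 19708015 in BDGP6.54, minus strand) and verm (vermiform, FBgn0261341, 3L from 19690033 to 19695260, minus strand) encode secreted chitin deacetylases that act in the tracheal lumen and cuticle, where they limit the elongation of the tubes. The genes are neighbours, with 5716 bases and no other annotated gene between them. serp stood at 54.2, 59.1 and 72.2 TPM in the control females against 305, 201 and 204 TPM in the clamp null females. In males it stood at 54.6, 46.1 and 50.1 TPM in the controls and 137, 187 and 136 TPM in the nulls. Every null library was above every control library of either sex. The increase was 3.74-fold in females (log2 fold change 1.90, SE 0.22, n = 3 and 3, adjusted p = 0.000166) and 2.98-fold in males (1.58, SE 0.22, adjusted p = 0.000129). All 3 clamp null males were below all 3 clamp null females, a log2 difference of -0.61 whose adjusted p was 0.787.

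verm was the most abundant of the 10 genes in every group. Its level was 68.4, 83.3 and 125 TPM in the control females against 517, 317 and 289.6 TPM in the clamp null females, a 4.02-fold increase (2.01, SE 0.26, adjusted p = 0.000319). In males it was 63.04, 67.9 and 68.98 TPM in the controls and 281, 329.9 and 284 TPM in the nulls, a 4.41-fold increase (2.14, SE 0.26, adjusted p = 4.99e-05). Again no null library overlapped a control library, although control female 3 stood above the other controls. Both deacetylase calls were kept in all 12 alternatives run for females and all 13 run for males, including those without the libraries labelled clamp null male 4 and 5, where the log2 fold change was 1.42 for serp and 2.07 for verm. Across the 12 libraries log2(TPM + 1) of serp and verm had a Pearson correlation of 0.98, which contains the shared difference between genotypes and is given as a description. Of the 2 tracheal genes, trh was lower in the null males, as given above. The other, btl, had means of 1.34 TPM in control males and 1.98 TPM in null males and was not called. The part of tracheal cells in the deacetylase levels was not tested.

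kkv (krotzkopf verkehrt, FBgn0001311, 3R from 5378093 to 5392866, minus strand) encodes the chitin synthase of epidermis and tracheae. Its level was 22.97, 25.8 and 20.01 TPM in the control females against 59.7, 31.9 and 39.4 TPM in the clamp null females, so that all null libraries lay above the controls. The increase was 1.81-fold (0.86, SE 0.27, n = 3 and 3, adjusted p = 0.0364). This call was lost in 6 of 12 alternatives, when any 1 of the control females, clamp null female 4 or clamp null female 6 was left out and when females were fitted alone, with log2 fold changes of 0.61 to 0.94 and adjusted p up to 0.139. In males kkv stood at 23.8, 23.1 and 20.6 TPM in the controls and at 19.9, 34.8 and 28.4 TPM in the nulls. The male groups overlapped, and the log2 fold change of 0.26 (95% interval -0.33 to 0.85) was not called on the deposited scale, with an adjusted p of 0.432, but was called after the rescaling (0.82, adjusted p = 0.00816). The gene CG14668 overlaps the span of kkv on the same strand, and reads in shared sequence could not be separated here.

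knk (knickkopf, FBgn0001321, 3R from 10122365 to 10125664, minus strand) encodes a membrane-anchored DOMON domain protein needed to order and protect newly made chitin. It was the least abundant of the genes in 3 of the 4 groups. Its level was 4.29, 2.89 and 0.591 TPM in the control females against 7.16, 4.37 and 5.59 TPM in the clamp null females. In the control males it was 6.90, 7.43 and 7.36 TPM and in the clamp null males 4.32, 5.44 and 3.49 TPM. The groups were therefore apart in both sexes but in opposite directions, the nulls being higher in females (log2 fold change 1.05, SE 0.40, adjusted p = 0.0730) and lower in males (-0.62, SE 0.40, adjusted p = 0.198). Neither difference was called, and the test of the difference between the sexes missed the threshold too (-1.66, SE 0.56, adjusted p = 0.0720). Control female 3, at 0.591 TPM, was the lowest library, and the female difference was 0.54 without it. Without control female 1, by contrast, the female difference and the difference between the sexes were both called (adjusted p = 0.0293 and 0.0273).

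**Figure D2:**
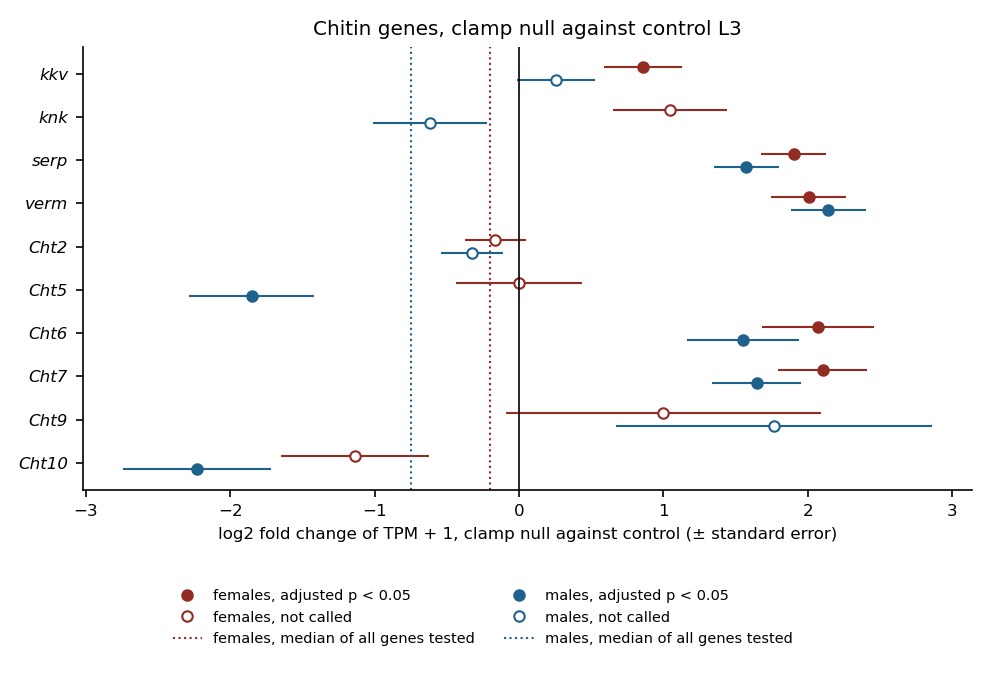
Log2 fold change of TPM + 1 on the x axis, clamp null against control, for the 10 genes in females (red) and males (blue), with the standard error from limma as bars; filled points had an adjusted p under 0.05 and dotted lines mark the median of all genes tested, -0.20 in females and -0.75 in males. serp, verm, Cht6 and Cht7 lay above 1.5 in both sexes, and Cht5 and Cht10 lay below -1.8 in males.

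The 6 chitinases of the set did not move together. Cht6 (FBgn0263132, X from 10016845 to 10050803, plus strand), a large chitinase of the cuticle matrix, stood at 4.11, 2.46 and 3.52 TPM in the control females against 24.3, 13.4 and 15.4 TPM in the clamp null females. In males its level was 3.89, 3.25 and 4.31 TPM in the controls and 11.96, 24.7 and 7.33 TPM in the nulls, so that the groups did not overlap in either sex. It rose 4.21-fold in females (2.07, SE 0.39, n = 3 and 3, adjusted p = 0.00266) and 2.93-fold in males (1.55, SE 0.39, adjusted p = 0.00505). When libraries 4 and 5 labelled clamp null male were left out, the male log2 fold change was 0.80 and the call was lost (adjusted p = 0.128). Clamp null male 5 held the highest level of the 12 libraries and clamp null male 6 the lowest of the nulls.

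Cht7 (FBgn0035398, 3L from 3090985 to 3106958, minus strand) belongs to a chitinase class that in the beetle Tribolium is membrane-anchored and needed to order chitin in the new cuticle. Its level was 9.60, 7.20 and 4.52 TPM in the control females against 38.9, 30.6 and 29.2 TPM in the clamp null females, 4.30-fold higher (2.10, SE 0.31, adjusted p = 0.000668). In males it was 8.06, 6.14 and 6.92 TPM in the controls and 19.2, 35.8 and 20.1 TPM in the nulls, 3.13-fold higher (1.65, SE 0.31, adjusted p = 0.000806). Every null library was at least at 19.2 TPM and every control library at or below 9.60 TPM. The call was kept in all alternatives of both sexes, with a male log2 fold change of 1.40 without the libraries labelled clamp null male 4 and 5. Cht6 and Cht7 correlated across the 12 libraries with a Pearson r of 0.95, and each with serp at 0.94, again as a description that holds the genotype difference.

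Cht5 and Cht10 are the classes of chitinase that in other insects digest the old cuticle at the moult. Cht10 (FBgn0250907, 2L from 22999574 to 23025915, minus strand) stood at 36.1, 27.3 and 21.9 TPM in the control males and 6.07, 7.16 and 3.02 TPM in the clamp null males. It fell 4.70-fold in males (log2 fold change -2.23, SE 0.51, n = 3 and 3, adjusted p = 0.00300), and the groups did not overlap. In females its level was 36.5, 26.7 and 8.29 TPM in the controls and 8.28, 5.13 and 15.02 TPM in the nulls. Here control female 3 lay within the range of the nulls, and the log2 fold change of -1.14 (95% interval -2.25 to -0.021) was not called (adjusted p = 0.125). Without control female 3 it was -1.73 and was called (adjusted p = 0.0171).

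Cht5 (FBgn0038180, 3R from 13767549 to 13770732, plus strand) fell in males, and its difference in females was not called. Its level was 24.1, 24.2 and 14.3 TPM in the control males and 4.63, 8.59 and 2.81 TPM in the clamp null males, a 3.61-fold decrease (-1.85, SE 0.43, adjusted p = 0.00345) with no overlap. In females it was 20.2, 9.74 and 6.03 TPM in the controls and 12.3, 8.32 and 11.9 TPM in the nulls, groups that overlapped throughout. The female log2 fold change was -0.00117 with a 95% interval of -0.95 to 0.95. The effect of genotype on Cht5 was lower in males than in females by 1.85 on the log2 scale (-1.85, SE 0.61), which missed the threshold (adjusted p = 0.0677). It was called when control female 1 (adjusted p = 0.0216) or clamp null male 5 (adjusted p = 0.0300) was left out, and without both clamp null male 4 and 5 (adjusted p = 0.0402). Both male decreases were kept in all 13 alternatives, with log2 fold changes of -2.48 for Cht5 and -2.84 for Cht10 without the libraries labelled clamp null male 4 and 5.

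Cht5 and Cht10 varied together across the libraries, with a Pearson r of 0.87. This contains their shared decrease in the clamp null males and is given as a description. Both genes also differed within the control females. In control females 1, 2 and 3 Cht5 stood at 20.2, 9.74 and 6.03 TPM and Cht10 at 36.5, 26.7 and 8.29 TPM, while the glue gene Sgs3 stood at 20334, 7726 and 4162 TPM in the same libraries. Library 1 was thus the highest and library 3 the lowest for all 3 genes. The summed glue genes had the same order in these libraries, at 152744, 123321 and 80113 TPM. Of the 6 glue genes only Sgs5 had another order, with its highest level in library 2. The order was not shared in control males 1, 2 and 3. There the glue sum was 148188, 115745 and 127244 TPM, lowest in library 2. Cht5 at 14.3 TPM and Cht10 at 21.9 TPM were lowest in library 3. Whether the larvae differed in age was not tested.

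Cht2 (FBgn0022702, 3L from 1752328 to 1755934, minus strand), a chitinase of the larval cuticle, was the steadiest of the 10 genes, with the highest library at 1.63 times the lowest. It stood at 50.1, 61.8 and 42.2 TPM in the control females against 54.5, 37.9 and 44.5 TPM in the clamp null females, and the log2 fold change was -0.16 (95% interval -0.63 to 0.30). In males it was 50.5, 58.6 and 56.8 TPM in the controls and 42.4, 48.96 and 40.6 TPM in the nulls. The male groups did not overlap, the nulls being lower on the deposited scale, and the log2 fold change of -0.33 (95% interval -0.79 to 0.14) was not called (adjusted p = 0.203). The rescaling turned the differences to 0.096 in females and 0.26 in males. The gene overlaps CG13921 on the opposite strand, and the strandedness of the libraries was not given in the sources used here.

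Cht9 (FBgn0034582, 2R from 21067992 to 21069286, minus strand), the shortest of these chitinases at 368 residues, was the most variable member, with its highest library at 82.0 times its lowest. It stood at 1.48, 3.53 and 22.7 TPM in the control females against 31.2, 1.71 and 23.3 TPM in the clamp null females. Male levels were 6.07, 10.2 and 9.33 TPM in the controls and 28.7, 7.85 and 122 TPM in the nulls. Both null groups held low and high libraries, as did the control females, and the genotypes overlapped in both sexes. Neither log2 fold change was called, at 0.9995 in females (SE 1.09, adjusted p = 0.574) and 1.77 in males (SE 1.09, adjusted p = 0.183). The male value was 0.79 without clamp null male 6 and 3.71 without clamp null male 4 and 5, and it was called in none of the alternatives.

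Between control males and control females knk was the only gene of the set to be called. It was higher in all 3 male libraries (2.57-fold, log2 fold change 1.36, SE 0.40, adjusted p = 0.0236), where 23.2% of all genes tested were called higher. This call was lost after the rescaling (1.08, adjusted p = 0.0580), without control female 3 (0.86, adjusted p = 0.0810) and without any 1 of the control males (adjusted p = 0.0611 to 0.0710). Without control female 1, Cht5 was called as well, so that 2 genes were called. The remaining 9 genes were not called, with log2 differences from -0.42 for verm to 0.87 for Cht5. The 95% interval of the Cht5 difference was -0.081 to 1.81.

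Clamp null males and clamp null females gave 0 calls among the 10 genes by limma, with 3 genes at an unadjusted p under 0.05, against 0.0179% of all genes called in that comparison. Without the libraries labelled clamp null male 4 and 5, 15.5% of all genes were called and still 0 of the 10. The 3 genes were kkv (log2 difference -0.62), serp (-0.61) and Cht5 (-0.98), all lower in the null males. The test of whether the effect of genotype differed between the sexes called 0 of the 10 genes, with knk and Cht5 at an unadjusted p under 0.05, while 14.7% of all genes were called. For serp, verm, Cht6 and Cht7 the log2 differences between the sexes in this effect were -0.33, 0.13, -0.52 and -0.46, with standard errors of 0.31 to 0.55.

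The order of levels changed with genotype. In the control females verm, serp and Cht2 led with mean levels of 92.2, 61.8 and 51.3 TPM, without a gap between the ranges of neighbours, and these were followed, beyond the range of Cht2, by Cht10 at 23.8 and kkv at 22.9 TPM. In the clamp null females verm at 374.5 TPM and serp at 237 TPM were above the range of Cht2, which stood at 45.6 TPM, and Cht10 was last but 1 at 9.47 TPM. In the control males the means ran from verm at 66.7 TPM through Cht2 at 55.3 and serp at 50.3 TPM to Cht10 at 28.4, kkv at 22.5 and Cht5 at 20.9 TPM. In the clamp null males verm at 298 TPM and serp at 153 TPM were again highest, and Cht10 at 5.41, Cht5 at 5.34 and knk at 4.42 TPM formed the low end with overlapping ranges.

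Alternative isoforms could be followed in 6 of the genes, which have 21 annotated transcripts in the data, 16 of them abundant enough to test. knk, Cht5, Cht7 and Cht9 each had a single transcript. The isoform balance of kkv changed in both sexes. The transcripts kkv-RC and kkv-RD are of equal length and differ by a pair of mutually exclusive coding exons of 177 bases, at 3R from 5380645 to 5380821 in kkv-RC and from 5380354 to 5380530 in kkv-RD. Both encode a protein of 1615 residues. Of the 16 isoforms tested, 2 were called in each sex, these 2 transcripts of kkv, whose shares mirror each other and so count as 1 event. Among all transcripts tested, 0.876% were called in females and 4.27% in males. Between the sexes 0 of the 16 were called by limma in the controls, with 0 at an unadjusted p under 0.05, against 1.96% of all transcripts, and 0 in the nulls, with 2 at an unadjusted p under 0.05 (Cht10-RA and Cht10-RB), against 0.126%. Without the libraries labelled clamp null male 4 and 5 the last comparison called 1.77% of all transcripts and 0 of the 16.

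The share of kkv-RD was 0, 30.9 and 21.4% of kkv TPM in the control females against 87.7, 87.7 and 81.8% in the clamp null females. In males it was 37.8, 31.8 and 12.9% in the controls and 94.2, 76.99 and 63.9% in the nulls. All 6 null libraries were above all 6 controls. The difference was 68.3 percentage points in females (SE 10.1, 95% interval 45.6 to 91.0, n = 3 and 3, adjusted p = 0.0160) and 50.9 points in males (SE 10.1, interval 28.1 to 73.6, adjusted p = 0.0270). The level of kkv-RC was 22.97, 17.9 and 15.7 TPM in the control females against 7.36, 3.93 and 7.16 TPM in the null females, whereas kkv-RD went from 0, 7.97 and 4.29 TPM to 52.3, 27.98 and 32.2 TPM. In males kkv-RC stood at 14.8, 15.05 and 17.97 TPM in the controls and 1.15, 8.01 and 10.3 TPM in the nulls, and kkv-RD at 8.98, 7.36 and 2.67 TPM in the controls and 18.8, 26.8 and 18.1 TPM in the nulls. Every null library thus had less kkv-RC and more kkv-RD than every control library of either sex. The remaining transcript, kkv-RA, which carries the same alternative exon as kkv-RC, was above 0 in control male 2 alone, at 3.02%.

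The call of the kkv isoforms was close to the threshold. With the arcsine square root of the share the adjusted p of kkv-RD was 0.0573 in females and 0.0951 in males, and with a variance trend it was 0.0527 and 0.0508. It was also lost in females without clamp null female 4 or 5 and in males without control male 2 or 3 or the libraries labelled clamp null male 4 or 5. Without both of the latter the male difference was 0.364 on a scale of 0 to 1 (adjusted p = 0.286). The direction was the same in all of these.

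**Figure D3:**
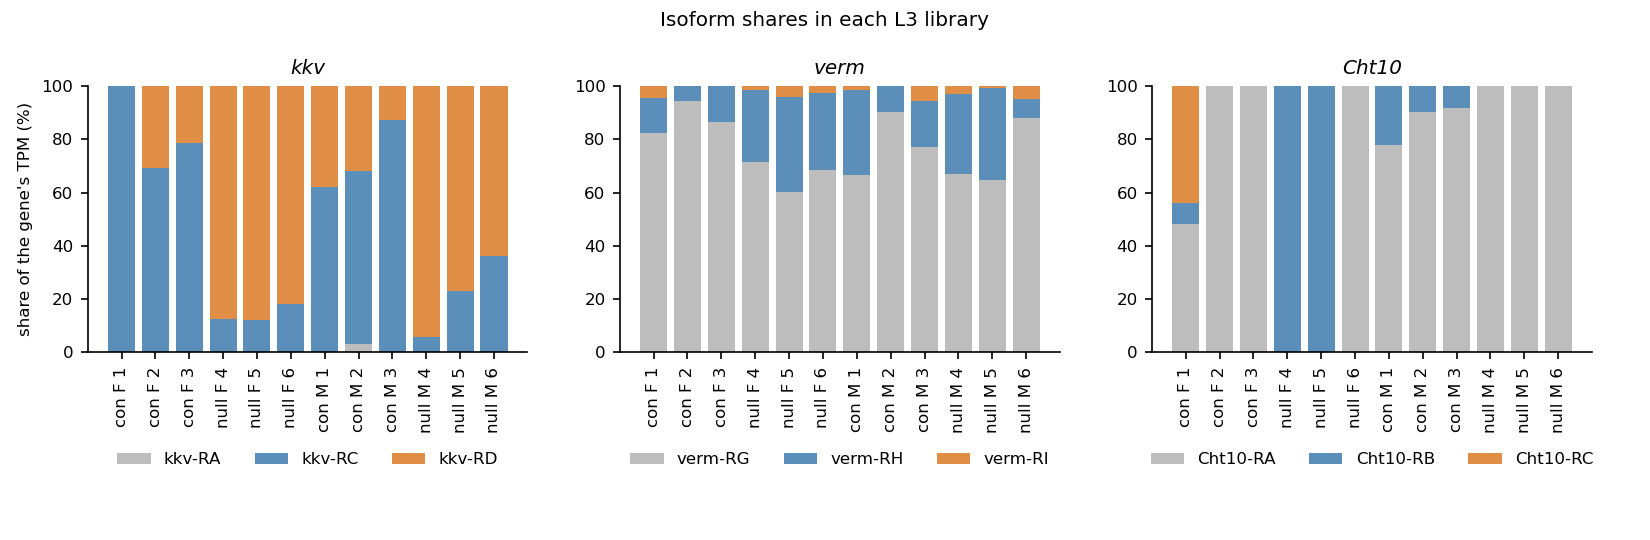
Share of each isoform in the TPM of its gene (y axis, %) in the 12 libraries for kkv, verm and Cht10, with 1 stacked bar for each library (con, control; null, clamp null; F, female; M, male). kkv-RD made up at least 63.9% of kkv in each clamp null library and at most 37.8% in each control library. In clamp null females 4 and 5 all Cht10 TPM was assigned to Cht10-RB, and the female difference was not called.

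In verm, the transcript verm-RG led in all 12 libraries with a mean share of 76.4%. It carries a coding exon of 113 bases (3L from 19692265 to 19692377) in place of the 131 bases (19692721 to 19692851) of verm-RH and verm-RI, and the predicted proteins have 525, 531 and 555 residues. The share of verm-RG was 82.2, 94.5 and 86.4% in the control females against 71.6, 60.4 and 68.6% in the clamp null females, which did not overlap. The male shares were 66.6, 90.3 and 77.1% in the controls and 66.95, 64.7 and 87.9% in the nulls, which did. The female difference of -20.8 percentage points (SE 7.68) was not called (adjusted p = 0.323).

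The isoforms of the other genes showed no call. serp-RC held a mean of 97.7% of serp and led in all 12 libraries, and both serp transcripts encode the same 541 residues. Cht2-RA held a mean of 84.2% and led in all 12, with the same 484 residues as Cht2-RB and Cht2-RC. Cht10-RA led in 10 of 12 libraries with a mean of 75.7%, while Cht10-RB made up 100% of Cht10 in clamp null females 4 and 5 and 0% in clamp null female 6. The 3 Cht10 transcripts encode the same 2286 residues, and Cht10 as a whole stood at 8.28 and 5.13 TPM in clamp null females 4 and 5. The female difference for Cht10-RB, 64.0 percentage points, was not called (adjusted p = 0.307), and became called with Cht10-RA when clamp null female 6 was left out. Cht6 was spread over 7 transcripts that encode 1367 to 4611 residues, led by Cht6-RH, with a mean share of 39.5%, or by Cht6-RI, and at these low levels its isoform shares moved between 0% and 84.7% within a single group.

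The rest of the chitin pathway was described with a list of 26 further gene symbols, of which 24 were found as separate genes and 23 were tested (2 are synonyms of Cht10, and Cht8 was below 1 TPM on average). In the clamp null females 5 of these were higher (Gfat1, obst-A, obst-B, Gasp and Cda5) and 1 was lower (Gnpnat), where 9.8% of all genes tested were called higher and 15.6% lower. In the males 8 were higher (Gfat1, exp, obst-A, obst-B, obst-E, Gasp, Cda4 and Cda5) and 3 lower (ChLD3, Cht12 and Hexo1), where the shares of all genes were 11.3% and 45.8%. Without the libraries labelled clamp null male 4 and 5, where 40.6% of all genes were called, 9 of the list were called in males: exp (adjusted p = 0.108), Cda5 (0.0846) and ChLD3 (0.289) were lost and Cht4 was added, higher in the null. The female call of Gnpnat was lost in 8 of 12 alternatives, with an adjusted p of up to 0.126. After the rescaling, the male calls of ChLD3 (-0.88, adjusted p = 0.0899 by limma) and Hexo1 (-0.43, adjusted p = 0.134) were lost. ChLD3 was also lost without control male 1 (adjusted p = 0.0609), while Cht12 was called in all 13 alternatives. The median log2 fold change of the list as reported was 0.11 in females and 0.56 in males.

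Among 5 genes of precursor supply 1 rose in each sex and 1 fell in females, against 9.8% of all genes called higher and 15.6% lower in females and 11.3% higher in males. Gfat1, which encodes the first enzyme of the hexosamine pathway, stood at 44.6, 42.96 and 40.1 TPM in the control females against 133, 133 and 127 TPM in the clamp null females (3.04-fold, adjusted p = 7.86e-05). In males it stood at 44.97, 41.9 and 49.8 TPM in the controls and 89.3, 103 and 92.3 TPM in the nulls (2.06-fold, adjusted p = 0.000281). No libraries of different genotype overlapped. Gnpnat, which acetylates glucosamine phosphate in the same pathway, fell in females with a log2 fold change of -0.68 (adjusted p = 0.0369). Gfat2, a second gene for the same first step as Gfat1, and nst and mmy, which act later in the supply of UDP-N-acetylglucosamine, were not called in either sex.

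Of 12 genes of synthesis, matrix assembly and deacetylation 4 rose and 0 fell in females and 7 rose and 1 fell in males, beside 9.8% higher and 15.6% lower over all genes in females and 11.3% and 45.8% in males. Gasp, a secreted chitin-binding protein of the tracheal matrix, had a level of 69.9, 77.2 and 69.8 TPM in the control females against 408, 402 and 412 TPM in the clamp null females (5.57-fold, adjusted p = 0.000609). In males the level was 56.00, 59.1 and 58.2 TPM in the controls and 353, 489 and 133 TPM in the nulls (4.86-fold, adjusted p = 0.000245). It was higher in all 6 null libraries, least so in clamp null male 6. obst-A, another chitin-binding protein of the cuticle matrix, was at 30.01, 25.6 and 23.8 TPM and 87.3, 105 and 87.1 TPM in the control and null females (3.43-fold, adjusted p = 0.00476) and at 36.00, 35.3 and 36.9 TPM and 79.2, 78.8 and 257 TPM in the control and null males (3.19-fold, adjusted p = 0.00240). Clamp null male 6 was here the highest library.

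Cda5, a further chitin deacetylase, was present at 2.88, 0.688 and 0.254 TPM in the control females against 12.1, 7.90 and 9.88 TPM in the clamp null females (log2 fold change 2.42, adjusted p = 0.00316). Among males it was at 1.54, 1.03 and 2.08 TPM in the controls and 6.22, 16.3 and 5.35 TPM in the nulls (1.88, adjusted p = 0.00482). The genotypes did not overlap in either sex. obst-E, of the same chitin-binding family as obst-A, was at 53.05, 71.1 and 98.1 TPM in the control males and 192, 145 and 659 TPM in the null males (1.87, adjusted p = 0.00691), and was not called in females. Chs2, the second chitin synthase gene, reb and rtv were not called in either sex.

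Of 6 genes of breakdown none was called in females, with 1 at an unadjusted p under 0.05 by limma. Cht12 and Hexo1 were lower in males, the latter not called after the rescaling (log2 fold change -0.43). Over all genes 25.4% were called in females and 45.8% were called lower in males. Cht12, a chitinase gene 3005 bases from Cht9 with 1 gene between them, was nearly restricted to the control males in these libraries. It stood at 26.1, 25.96 and 22.9 TPM in the control males and 0, 0 and 5.87 TPM in the clamp null males, with 0, 0.179 and 0.737 TPM in the control females and with 0.258, 0 and 0 TPM in the null females. The log2 fold change was -3.77 in males (adjusted p = 0.000285), and control males were higher than control females by 4.35 (adjusted p = 0.000121). Without the libraries labelled clamp null male 4 and 5 the male value was -1.92 (adjusted p = 0.00316). Among the null males both Cht12 and the summed testis genes were highest in clamp null male 6, and the part of those tissue differences was not tested.

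**Figure D4:**
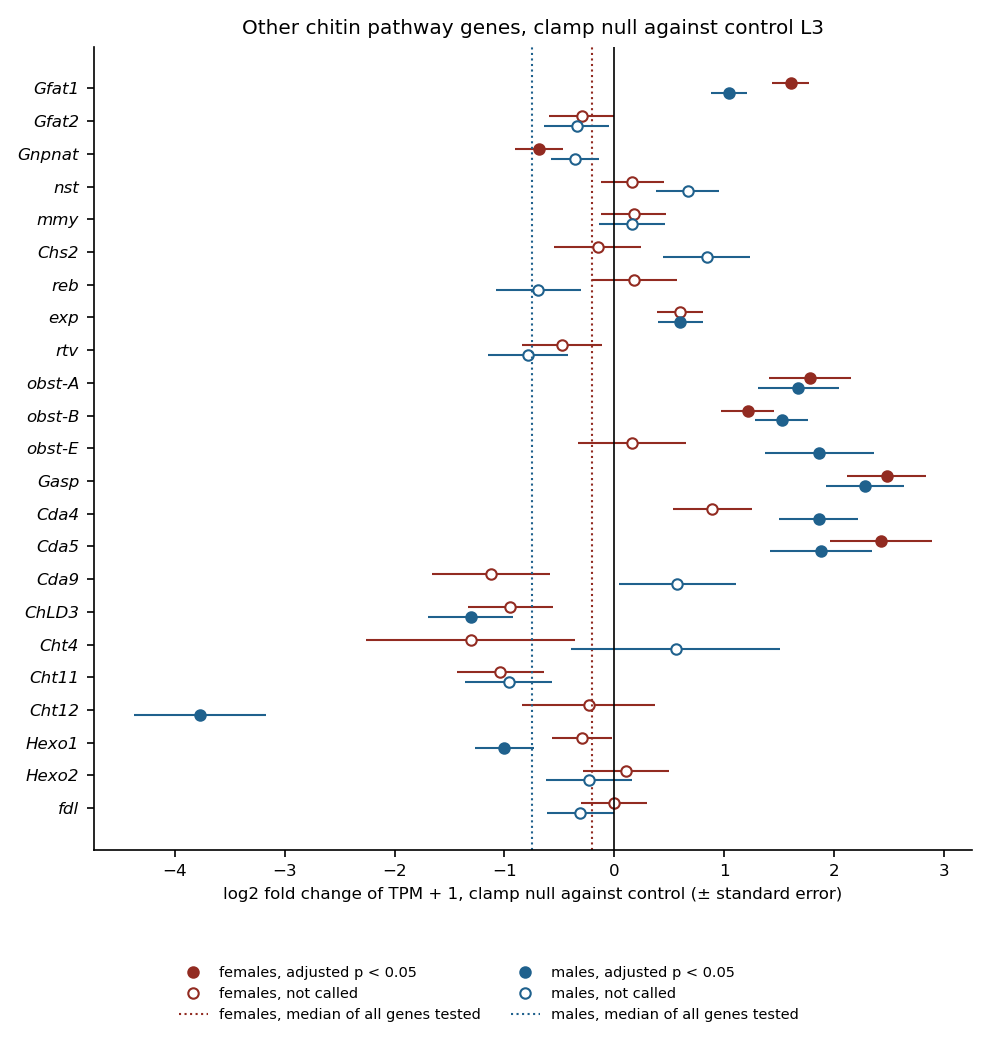
Log2 fold change of TPM + 1 on the x axis, clamp null against control, for the 23 other chitin pathway genes tested, ordered from precursor supply at the top through matrix assembly to breakdown at the bottom, in females (red) and males (blue), with standard errors; filled points had an adjusted p under 0.05 and dotted lines mark the median of all genes tested. Gasp and Cda5 had the largest increases in females, and Cht12 in males had the largest decrease.

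For 4 of the genes the most similar profiles across the 12 libraries were sought among 11144 other genes, with the Pearson correlation of log2(TPM + 1) as a description. The closest to kkv was haf (r = 0.96), followed by CG3328 (0.94) and Sur (0.94). The closest to serp were Muc11A (0.99), Zasp52 (0.99) and Ugt302C1 (0.99), all of which carry the genotype difference. Cht5 was followed most closely by Sesn (0.95), CG10948 (0.95) and Dcr-2 (0.94). Cht9 had weaker neighbours in CG32473 (0.89), CG8563 (0.88) and CG4781 (0.87).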

How the data were processed

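Poly-A RNA of whole L3 larvae, control (yw) or clamp null, was sequenced as paired ends. The authors quantified transcripts with Salmon within time2splice, and the deposited values are TPM for 29936 transcripts in each of 12 libraries, summing to 1000000. The labels name dm6, FastQC, Trim Galore, cutadapt and Bowtie2. Depth per library is unknown, as no read counts were used, and error was taken from the 3 libraries of each group. Groups were taken from the sample titles, since a label field for sex conflicts with them.

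Transcripts were assigned to genes with Ensembl release 115 (BDGP6.54), which held 29926 of them, and 10 others, at most at 58.0 TPM, were left out. Gene TPM is the sum over transcripts. Genes averaging 1 TPM or more (11145) were tested on log2(TPM + 1) by limma 3.58.1, run in R 4.3.3, with a variance trend and all 12 libraries in 4 groups, and the sexes were compared by an interaction term. Isoform shares of 11068 transcripts were tested with limma without a trend. Benjamini-Hochberg adjustment covered all features tested, and an adjusted p under 0.05 was called. The tests were checked on simulated data: for females, 12 of 97 genes given a log2 change of 1 and 79 of 103 given a change of 2 were recovered, with 5 false calls. A share changed by 0.5 was recovered for 101 of 200 transcripts out of 11326 with 3 false calls. The gene changes were planted only in genes at 3 TPM or more in the control females, and simulated shares were not held between 0 and 1. Few genes were changed, whereas 25.4% of all genes were called in females in the data, so these recoveries need not hold there.

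The genes, the pathway list, the marker lists and the tests were chosen with earlier results of these data known. All 10 members are named. Of the pathway list, up to 4 called genes with the largest change in each genotype comparison are given with values; others are named with their calls. Alternatives were pseudocount 0.1, no filter or a mean of 3 TPM, median-of-ratios scaling, no variance trend, each library left out, the 2 compared groups alone, a block for library number and, for shares, the arcsine square root and a variance trend.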

Additional observations from a re-analysis of the deposited data

Results flagged for a closer look

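Cht12 had an interaction term of genotype and sex of -3.54 on the log2 scale by limma (SE 0.85, adjusted p = 0.0140). It was called alone among the 23 further chitin genes tested, where 14.7% of all genes were called. The value was -1.68 (adjusted p = 0.0310) without both libraries labelled clamp null male 4 and 5, and the call was lost with pseudocount 0.1 (-5.10, adjusted p = 0.163) and after median-of-ratios scaling (-3.10, adjusted p = 0.0507). The level of Cht12 lay between 22.9 and 26.1 TPM in the control males and at or below 0.737 TPM in every female library. Within the clamp null males it was above 0 in library 6 alone. At these female levels a decrease in females could not be seen. The interaction term therefore cannot show whether the effect of genotype differs between the sexes.

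For knk all clamp null females were higher than all control females, and all clamp null males were lower than all control males. The difference between these effects was -1.66 on the log2 scale and missed the threshold (adjusted p = 0.0720), so the opposite directions are given as values.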

How the results depend on the processing

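Over the alternatives, the number of the 10 genes called stayed within 1.5 times for clamp null against control in both sexes, at 4 to 5 in females and 6 in males when each library was left out. For control males against control females, where 1 was called, it was 0 after median-of-ratios scaling, where 21.3% of all genes were called. It was 0 to 2 when libraries were left out, with 2 without control female 1, where 24.5% of all genes were called. For null males against null females it was 0 to 0. For the difference between the sexes it was 0 to 2 when libraries were left out, with 2 without control female 1, where 14.2% of all genes were called. Without both libraries labelled clamp null male 4 and 5 this difference was -2.48 for Cht5. Of the isoforms, where 2 were called in each sex, 0 were called with the arcsine square root or the variance trend in either sex, 0 in males with only the 2 groups compared, and 0 in males without both libraries labelled clamp null male 4 and 5, the last chosen after the data were examined. When each library was left out, 0 to 4 were called in females, 0 to 2 in males, 0 to 0 between the control sexes and 0 to 2 between the null sexes. The 4 in females and the 2 between the null sexes were called without clamp null female 6, where 1.14% and 0.398% of all transcripts were called. With all libraries these shares were 0.876% in females, 4.27% in males, 1.96% between the control sexes and 0.126% between the null sexes. The counts of the 23 other pathway genes under the alternatives were added after the data were examined. When each library was left out, 5 to 6 were called in females, 10 to 13 in males, 1 to 2 between the control sexes, 0 to 0 between the null sexes and 1 to 2 for the difference between the sexes. With all libraries, 25.4% of all genes tested were called in females and 57.1% in males. The shares were 24.8% between the control sexes, 0.0179% between the null sexes and 14.7% for the difference between the sexes. Median-of-ratios scaling gave 2 between the control sexes and 0 for the difference between the sexes, pseudocount 0.1 gave 0 for that difference and the replicate block 2, and without both libraries labelled clamp null male 4 and 5 there were 6 between the null sexes and 7 for that difference. The cause of these changes was not tested, and leaving out libraries also leaves fewer samples.

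Median-of-ratios scaling moved the split of calls over all genes from 1092 higher and 1742 lower to 1506 and 1232 in females, from 1263 and 5103 to 2031 and 3125 in males, from 2587 and 174 to 1963 and 385 between the control sexes, and from 55 and 1584 to 94 and 1058 for the difference between the sexes.

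Among the 10 genes and the called pathway genes, directions turned only for log2 differences that were not called. With scaling, Cht2 turned to 0.096 in females, 0.26 in males, -0.19 between the control sexes and 0.16 for the difference between the sexes, Cht5 to 0.24 in females, and Cht6 and Cht7 to -0.090 and -0.24 between the control sexes. With pseudocount 0.1, Cht5 turned to 0.010 in females. With each library left out in turn, Cht5 in females ranged from -0.37 to 0.43. Between the control sexes the ranges were -0.11 to 0.064 for kkv, -0.012 to 0.26 for Cht2, -0.0024 to 0.28 for Cht6, -0.22 to 0.25 for Cht7, -0.15 to 1.48 for Cht9 and -0.16 to 0.85 for Cht10. Between the null sexes they were -0.17 to 0.091 for Cht2 and -0.80 to 0.0082 for Cht6, and for the difference between the sexes -0.11 to 0.39 for verm and -0.36 to 1.69 for Cht9.

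The library numbers do not name shared animals, and the correlation of deviations of libraries with the same number ran from -0.077 to 0.26, with 4 of 12 libraries closest to their own number. With a replicate block, 1 gene (knk) was called between the control sexes, 0 between the null sexes and 0 for the difference between the sexes, and 0 isoforms between the sexes of either genotype.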
